A study of Marchantia polymorpha with 2 samples.

Results

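The genes described here are those of the male sex chromosome of the liverwort Marchantia polymorpha, chosen by their identifiers. All rows of the deposited expression table whose identifier begins with MapolyY were taken, which gave 48 of 16280 genes. The prefix divides them into 21 genes on Y_A scaffolds and 27 on Y_B scaffolds. Expression was measured by RNA sequencing in gametophytic thallus, the flat haploid plant body. The estradiol library came from plants of the genotype proEF1:MpKNOX2; proEF1:XVE>>MpBELL1 that were grown from gemmae for 10 days and then kept for 72 h on 5 µM 17-β-estradiol. The mock library came from plants of the same genotype, grown alike and kept for 72 h on mock medium. Both groups thus carried the constitutive MpKNOX2 transgene, and they differed in the supply of the hormone that switches on MpBELL1 through the XVE system. Each group had 1 library, from about 100 mg of tissue. The number of plants, the number of transgenic lines and the sex of the line are not given in the labels, and plants without the transgenes on estradiol were not analysed here, so a response to the hormone and a response to MpBELL1 cannot be told apart.

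In Marchantia polymorpha sex is set in the haploid plant: a spore that inherits the Y chromosome (also called V) grows into a male thallus, and one that inherits the X (also called U) grows into a female. The Y is present in a single copy in every cell of a male thallus. Some of its genes are known to serve male reproduction, and others have a counterpart on the X and are active in vegetative tissue. KNOX and BELL are homeodomain proteins of the TALE class that bind each other and act as a pair on transcription, and the series title places the study in the evolution of secondary cell walls and pectin synthesis. The files pair no identifier with a name, and 0 of the 48 identifiers matched the reference table, so no function is given for any of the genes below. For the same reason the tissue markers and the transgenes themselves were not checked here. Which of the genes have a near-identical X counterpart is not known from these files, and reads of such a pair may have been divided between the copies.

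Reads counted in genes came to 13103037 for estradiol and 15495357 for mock. The values are the authors' normalized counts, in which 1 read was worth 0.995 with estradiol and 1.01 with mock. They are not divided by gene length, so they are compared between libraries and not between genes. Each ratio below is estradiol over mock, with a 95% exact (Clopper-Pearson) interval that covers counting error only. With 1 library per group no test between the conditions was possible, none of the differences has a replicate check, and fewer cells of a type cannot be told apart from less RNA per cell. The normalized counts summed to 1.20 times as much in mock as in estradiol, so the scaling of the libraries bears on small ratios. With both sums set equal, the median log2 ratio of all genes was 0.23, against -0.03 as deposited.

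The genes of the male chromosome ranged widely in read number, and a single read over both libraries was the fewest. Of the 48 genes, 37 had reads in both libraries. Reads were in estradiol alone for 8 (16.7%, against 7.62% of all genes) and in mock alone for 3 (6.25%, against 3.54%). The mean normalized count over both libraries was 10 or more for 25 genes (52.1%, against 79.0% of all genes in the table) and 1000 or more for 11 (22.9%, against 19.2% of all genes). Of these 11, 8 lie on Y_A scaffolds and 3 on Y_B. At the other end, 18 genes had 5 or fewer reads in total over both libraries (37.5%, against 12.5% of all genes), 6 of them on Y_A and 12 on Y_B.

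**Figure D1:**
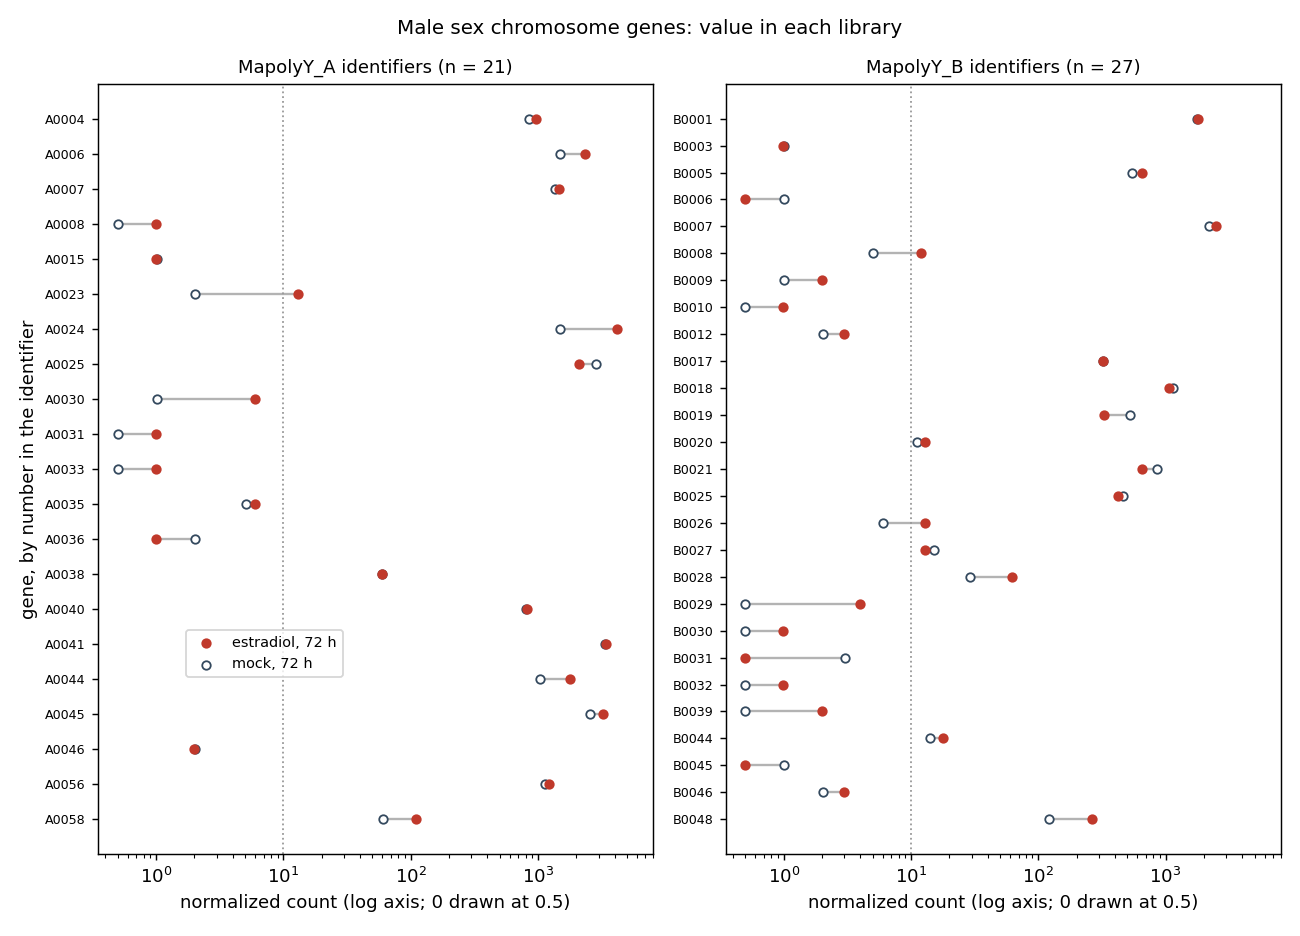
Normalized count (log axis) of each of the 48 genes in the estradiol library (filled points) and the mock library (open points), ordered by the number in the identifier, with the prefix MapolyY_ and the ending shared by all identifiers left off. Counts of 0 are drawn at 0.5, and the dotted line marks 10; 25 genes had a mean of 10 or more, and most of their pairs of points lie close together.

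The ratios were compared gene by gene for the 25 genes past this mean of 10. The log2 ratio of (normalized count + 10), a scale that understates the change of genes with few reads, ranged among them from -0.66 to 1.46 with a median of 0.10. Over all 12854 genes past the same filter it ranged from -8.37 to 9.69 with a median of -0.03. At least 2-fold higher in estradiol were 2 of the 25 genes, against 15.0% of all genes, and at least 2-fold lower were 0, against 18.2%. Past 1.5-fold, 6 of the 25 were higher (24.0%, against 24.3%) and 1 was lower (against 27.1%). No member differed 4-fold in either direction, against 11.6% of all genes. Within 1.5-fold lay 18 of 25 (72.0%, against 48.6%), and within 1.3-fold lay 16 (64.0%, against 34.9%). At the deposited scaling, the median size of the difference, regardless of direction, was 1.14-fold among the 25 genes and 1.52-fold among all genes. With the sums of the libraries set equal, this median is not given here. In that setting 18 of the 25 genes lay within 1.5-fold, against 45.7% of all genes. Among genes with a mean of 100 or more, where counting error is smaller, 14 of 19 members lay within 1.5-fold (73.7%, against 52.3% of all such genes). These shares are a description of 25 genes, and the difference between them and the rest of the table was not tested.

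**Figure D2:**
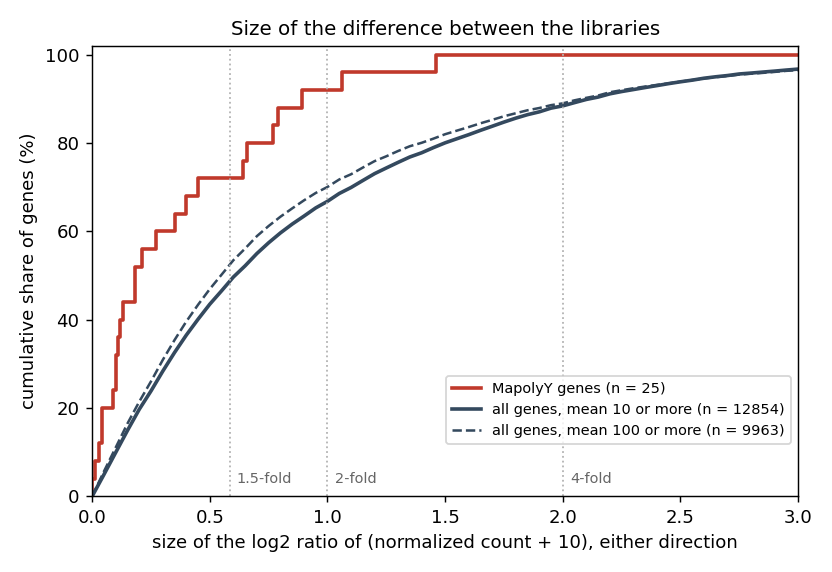
Cumulative share of genes (%) by the size of the log2 ratio of (normalized count + 10) in either direction, for the 25 male chromosome genes and for all genes with a mean of 10 or more (n = 12854) or of 100 or more (n = 9963). The line of the male chromosome genes reaches 72.0% at 1.5-fold, where the line of all genes with a mean of 10 or more stands at 48.6%.

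The largest ratio among the 25 genes belonged to MapolyY_A0024.1.v3.1, which had 4164 normalized counts with estradiol and 1503 with mock. Its ratio of 2.77 had an interval of 2.61 to 2.94, and its log2 ratio of 1.46 stood at percentile 90.8 of all genes past the filter. It was the 1 member of 25 whose interval lay wholly above 2, against 12.0% of all genes. The next, MapolyY_B0048.1.v3.1, had 265.7 normalized counts with estradiol and 122.5 with mock. Its ratio of 2.17 had an interval of 1.74 to 2.71, so counting error alone allows a difference below 2-fold. MapolyY_B0028.1.v3.1 had 62.7 with estradiol and 29.3 with mock. Its ratio of the normalized counts, 2.14, was close to that of MapolyY_B0048.1.v3.1, but with 63 and 29 reads its interval ran from 1.36 to 3.44, and with the pseudocount of 10 its log2 ratio was 0.89, below the 2-fold line. All 3 were higher in estradiol, 1 on Y_A and 2 on Y_B scaffolds.

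Other genes were higher in estradiol by less than 2-fold, with intervals that lay wholly above 1. MapolyY_A0058.1.v3.1 had 110.5 normalized counts with estradiol and 60.7 with mock, a ratio of 1.82 (1.32 to 2.53). MapolyY_A0044.1.v3.1 had 1802 with estradiol and 1036 with mock, a ratio of 1.74 (1.61 to 1.88). MapolyY_A0006.1.v3.1 had 2342 with estradiol and 1495 with mock, a ratio of 1.57 (1.47 to 1.67). Setting the sums of the libraries equal raises every ratio, since mock has the larger sum, and the intervals of these 3 genes were then 1.58 to 3.05, 1.94 to 2.26 and 1.77 to 2.01, in the same order. For MapolyY_A0045.1.v3.1, 3246 with estradiol and 2549 with mock gave a ratio of 1.27 (1.21 to 1.34). MapolyY_B0005.1.v3.1 had 657.7 with estradiol and 543.5 with mock, a ratio of 1.21 (1.08 to 1.36). The ratios of MapolyY_B0007.1.v3.1 (2486 with estradiol, 2186 with mock) and MapolyY_A0004.1.v3.1 (960.2 with estradiol, 846.1 with mock) were 1.14 and 1.13. In all, 10 of the 25 intervals lay wholly above 1 (40.0%, against 37.0% of all genes), a share that depends on the reads of each gene and on the scaling as well as on the size of the ratios.

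Lower in estradiol with an interval wholly below 1 were 3 of the 25 genes (12.0%, against 40.3% of all genes). MapolyY_B0019.1.v3.1 had 330.4 normalized counts with estradiol and 526.3 with mock, a ratio of 0.628 (0.545 to 0.722). MapolyY_A0025.1.v3.1 had 2112 with estradiol and 2883 with mock, a ratio of 0.733 (0.692 to 0.775). MapolyY_B0021.1.v3.1 had 650.8 with estradiol and 863.3 with mock, a ratio of 0.754 (0.680 to 0.836). All 3 intervals stayed above 0.5, so that counting error did not reach a 2-fold lower level for any of them. With both sums set equal, the interval of MapolyY_B0021.1.v3.1 reached 1.01, and those of the other two stayed below 1.

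**Figure D3:**
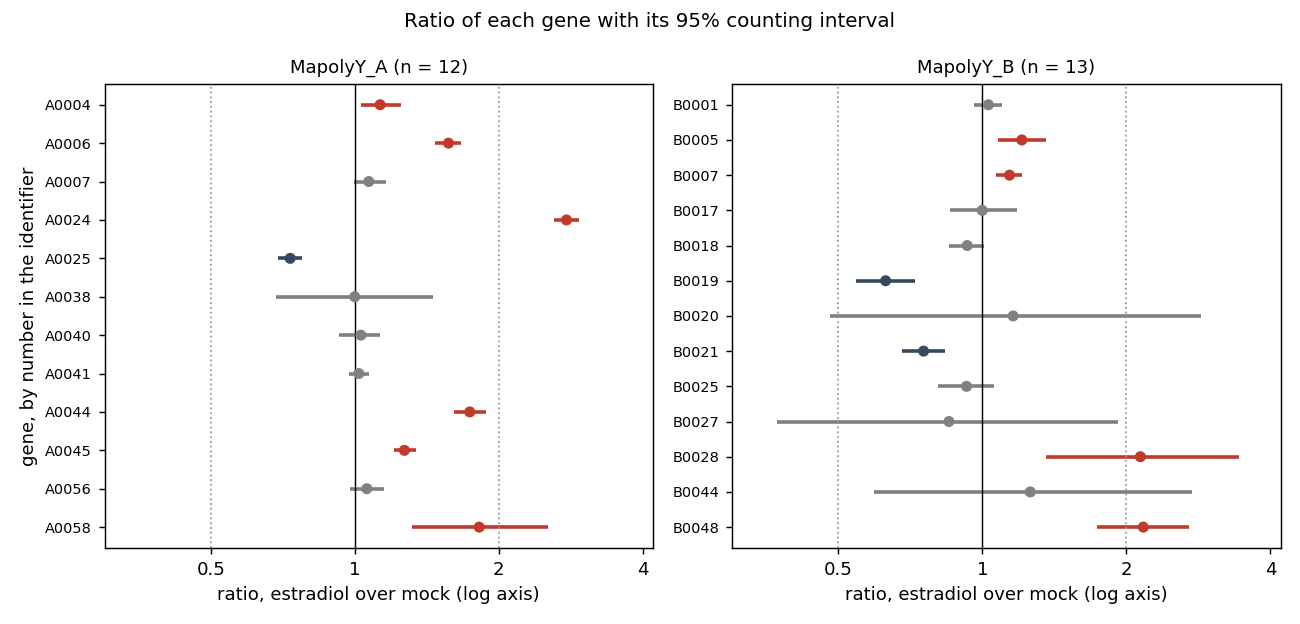
Ratio of estradiol over mock (log axis) of the 25 genes past the mean of 10, as points, with their 95% counting intervals as lines. Red marks intervals wholly above 1 (10 genes), dark blue intervals wholly below 1 (3 genes) and grey intervals that hold 1 (12 genes); dotted lines mark 2-fold, which the whole interval of A0024 alone exceeds.

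The remaining 12 intervals held 1 (48.0%, against 22.7% of all genes). For several well-read genes these intervals were narrow. MapolyY_A0041.1.v3.1 had 3419 normalized counts with estradiol and 3345 with mock, a ratio of 1.02 and an interval from 0.974 to 1.07. MapolyY_B0001.1.v3.1 had 1815 with estradiol and 1765 with mock, a ratio of 1.03 (0.962 to 1.10). MapolyY_A0007.1.v3.1 had 1471 with estradiol and 1370.3 with mock, a ratio of 1.07 (0.996 to 1.16). In all, 8 of the 12 intervals lay within 1.3-fold in both directions, so that at the deposited scaling counting error left no room for a larger difference. The share of all genes with such an interval is not given here. These 8 include the 3 genes just described. With the sums of the libraries set equal, the intervals of these 3 were 1.17 to 1.29, 1.16 to 1.32 and 1.2 to 1.39, in the same order. Of the 8, only MapolyY_B0025.1.v3.1 then had an interval that held 1 (0.975 to 1.28), and the others lay wholly above 1. Another of the 8 was MapolyY_A0056.1.v3.1, with a ratio of 1.06 (0.979 to 1.15) from 1217 with estradiol and 1146 with mock. MapolyY_B0018.1.v3.1 had a ratio of 0.930 (0.854 to 1.01) from 1061 with estradiol and 1141 with mock. MapolyY_A0040.1.v3.1 had a ratio of 1.03 (0.929 to 1.13) from 824.9 with estradiol and 804.6 with mock.

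The last of these 8 genes, MapolyY_B0017.1.v3.1 and MapolyY_B0025.1.v3.1, had fewer reads. MapolyY_B0017.1.v3.1 had 322.4 normalized counts with estradiol and 320.8 with mock, with an interval of the ratio of 0.858 to 1.18. MapolyY_B0025.1.v3.1 had 425.9 with estradiol and 459.5 with mock, with an interval of 0.810 to 1.06. MapolyY_A0038.1.v3.1 had 59.7 in each library, and with so few reads its interval ran from 0.686 to 1.46. The intervals of the last 3 genes past the filter reached beyond 2-fold in at least 1 direction, so that a difference of that size was not detectable at this depth. MapolyY_B0044.1.v3.1 had 17.9 with estradiol and 14.2 with mock (interval 0.594 to 2.75). MapolyY_B0027.1.v3.1 had 12.9 with estradiol and 15.2 with mock (0.373 to 1.92). MapolyY_B0020.1.v3.1 had 12.9 with estradiol and 11.1 with mock (0.480 to 2.86).

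The scaling of the libraries set the direction of the ratios close to 1. As deposited, 18 of the 25 log2 ratios lay above 0 (72.0%, against 48.3% of all genes). With the sums of the libraries set equal, a step that adds about the same amount to every log2 ratio of a well-read gene, 22 of 25 lay above 0, against 60.7% of all genes. The genes that turned were MapolyY_A0038.1.v3.1, MapolyY_B0018.1.v3.1, MapolyY_B0025.1.v3.1 and MapolyY_B0027.1.v3.1, each with an interval that held 1 as deposited. The median of the 25 genes was then 0.35, beside 0.23 for all genes. In that setting 17 of the 25 intervals lay wholly above 1 (against 49.5% of all genes) and 2 wholly below it (against 30.0%). At least 2-fold higher were then 5 of the 25 genes, close to the 19.7% of all genes: MapolyY_A0024.1.v3.1 (log2 ratio 1.73), MapolyY_B0048.1.v3.1 (1.31), MapolyY_B0028.1.v3.1 (1.10), MapolyY_A0044.1.v3.1 (1.06) and MapolyY_A0058.1.v3.1, the last just past the line.

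Summed over all 48 genes, the male chromosome gave 29924 normalized counts in estradiol (0.230% of the library) and 25131 in mock (0.160%). The ratio of the sums was 1.19, with an interval of 1.17 to 1.21. The sum over all genes of the table had a ratio of 0.831. At the deposited scaling MapolyY_A0024.1.v3.1 made up 2661 of the 4793 normalized counts by which the sums differed (55.5%), and without it the ratio was 1.09 (1.07 to 1.11). Of the difference in the shares of the library it made up 32.3%, and without it the shares were 0.198% with estradiol and 0.151% with mock. The sum was thus higher in estradiol with and without this gene. The next parts were 847.6 from MapolyY_A0006.1.v3.1, 765.7 from MapolyY_A0044.1.v3.1 and 696.5 from MapolyY_A0045.1.v3.1. The largest part in the other direction, estradiol minus mock, was -770.8 from MapolyY_A0025.1.v3.1.

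**Figure D4:**
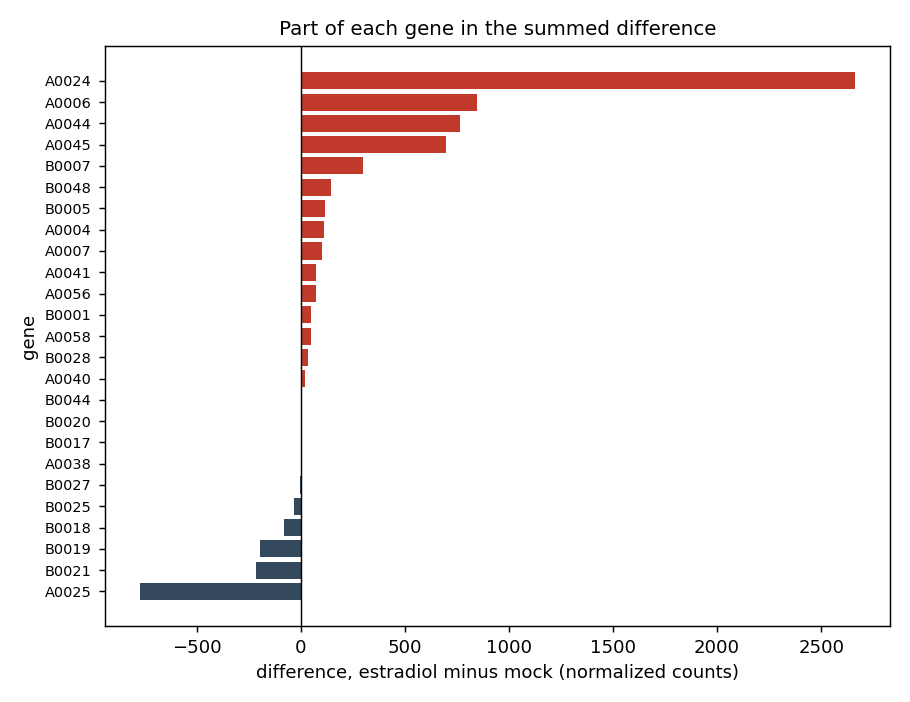
Difference between the libraries, estradiol minus mock, in normalized counts, for the 25 genes past the mean of 10, ordered by size. The bar of A0024 (2661) is more than 3 times as long as the next, that of A0006 (847.6), and A0025 has the longest bar to the left (-770.8).

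The scaffold groups differed in their sums. The 21 Y_A genes gave 21761 normalized counts with estradiol and 17112 with mock, a ratio of 1.27 (1.25 to 1.3). The 27 Y_B genes gave 8163 with estradiol and 8020 with mock, a ratio of 1.02 (0.987 to 1.05). Without MapolyY_A0024.1.v3.1 the ratio of the Y_A genes was 1.13 (1.10 to 1.15), still above the interval of the Y_B genes. As shares of the library, the Y_B genes took 0.0626% with estradiol and 0.0511% with mock, and with the sums of the libraries set equal their ratio was 1.22 (1.19 to 1.26). With the median log2 ratio of all genes set to 0 the ratio of the Y_B genes was 1.04 (1.01 to 1.07). The ratio of the Y_A genes was 1.53 (1.5 to 1.56) with the sums set equal and 1.3 (1.27 to 1.32) with the median set to 0. A change of scaling multiplies both ratios alike, so it cannot change which group has the higher ratio and is no check of that difference. Gene by gene the groups overlapped widely: the log2 ratios of the 12 Y_A genes past the filter ran from -0.45 to 1.46 with a median of 0.14, and those of the 13 Y_B genes from -0.66 to 1.06 with a median of 0.04. These intervals describe the reads of the 2 libraries and not the variation between plants.

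Among 9 pairs of genes with consecutive numbers that both passed the filter, 4 had log2 ratios of the same sign and 5 of opposite sign at the deposited scaling. These counts depend on the scaling. With the sums of the libraries set equal, the log2 ratios of MapolyY_B0018.1.v3.1 (-0.10 as deposited) and MapolyY_B0027.1.v3.1 (-0.13) became 0.16 and 0.02. The intervals of the ratio were apart in 4 of the 9 pairs and overlapped in the other 5. The shares of like pairs over all genes are not given here, so these counts have no background to be read against. The widest step lay between MapolyY_A0024.1.v3.1, the gene with the largest higher ratio (2.77), and the next number, MapolyY_A0025.1.v3.1, with a ratio of 0.733. MapolyY_A0044.1.v3.1 and MapolyY_A0045.1.v3.1 had ratios of 1.74 and 1.27, both above 1 with intervals apart, whereas MapolyY_A0040.1.v3.1 and MapolyY_A0041.1.v3.1 had ratios of 1.03 and 1.02. Whether the numbers follow the order of the genes along the scaffolds was not tested.

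The 23 genes below the filter had 1 to 19 reads in total over both libraries, and all 23 together had 75 reads in estradiol and 35 in mock. Of them, 16 had more reads in estradiol (69.6%, against 60.2% of all genes below the filter), 4 more in mock (17.4%, against 32.6%) and 3 the same number. MapolyY_A0023.1.v3.1, named after its values were seen, was the 1 gene of the 23 whose interval excluded 1. It had 13 reads in estradiol and 2 in mock, which gave a ratio of 6.39 and an interval from 1.45 to 58.3. The interval is not corrected for the choice of this gene from 23. The share of such intervals among all genes below the filter is not given here. The next number is MapolyY_A0024.1.v3.1, the gene with the largest ratio past the filter, but whether the numbers follow gene order was not tested. MapolyY_B0026.1.v3.1 (13 reads in estradiol, 6 in mock) and MapolyY_B0008.1.v3.1 (12 reads in estradiol, 5 in mock) had ratios of 2.13 and 2.36, with intervals of 0.755 to 6.83 and 0.774 to 8.55 that hold 1.

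Reads in 1 library alone were found for 11 genes. In estradiol alone there were 8 (16.7%, against 7.62% of all genes), of which 6 had a single read, and the most was 4 reads, for MapolyY_B0029.1.v3.1. A count of 0 in mock allows up to 3 reads, or 3.04 normalized counts, against which MapolyY_B0029.1.v3.1 was at least 1.31-fold higher in estradiol. Its counting interval, which also covers the error of its own 4 reads, reached down to 0.649 and so held 1. In mock alone there were 3 (6.25%, against 3.54%), with at most 3 reads, for MapolyY_B0031.1.v3.1. Genes with 5 or fewer reads in total were more frequent among the members (37.5%, against 12.5% of all genes). The shares read in 1 library alone were not compared among genes of like read number. At these read numbers a gene that was off in one library cannot be told from a gene that was missed by chance.

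The authors' deposited table tagged 2 of the 48 genes as up (4.17%, against 10.3% of all genes) and 0 as down (against 13.4%). These shares include genes with few reads: 47.9% of the members had a mean under 10, against 21% of all genes. The shares tagged among genes of like read number are not given here. In the authors' deposited table the tagged genes were MapolyY_A0024.1.v3.1, with a log2 ratio of 1.47 and a probability score of 0.951, and MapolyY_B0048.1.v3.1, with a log2 ratio of 1.12 and a score of 0.928. MapolyY_B0028.1.v3.1 came next in the authors' deposited table, with a log2 ratio of 1.09 and a score of 0.844, and carried no tag. The tags rest on the same 2 libraries as the ratios given here and are not independent of them.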

How the data were processed

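FastQC, STAR and HTSeq are named, per the submitters' processing notes, without an order. Their versions and settings are not given in the sources used here, nor are genome build, strand use and how values were normalized. The authors deposited normalized counts, a signal that is never below 0, for 16280 genes. Dividing a column by its smallest value other than 0 gave whole numbers to within 3.63e-05, which were taken as reads. The authors' own comparison, per the file headers, repeats these columns with 0 replaced by 0.5 and adds a log2 ratio (equal to the log2 of its columns to within 4.86e-07), an absolute difference, a ranking score and a probability score from 0 to 1, whose making is not stated and which was not read as a p-value.

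Members were all genes whose identifier begins with MapolyY. Members, filter and lists were chosen with earlier results of these data known. The log2 ratio of (normalized count + 10) was computed, and genes averaging at least 10 normalized counts over both libraries were compared. All members past this filter are named. Of those below it, only genes with 0 reads in one library and 5 or more in the other were to be named, and there were none. MapolyY_A0023.1.v3.1, MapolyY_B0026.1.v3.1, MapolyY_B0008.1.v3.1, MapolyY_B0029.1.v3.1 and MapolyY_B0031.1.v3.1 are named in addition, after their values were seen. Intervals of a ratio are exact 95% binomial (Clopper-Pearson) intervals given the reads of both libraries. Without molecular identifiers PCR copies count as reads, so intervals and the limit of 3 reads cover counting error only. The computation was tested on simulated data. Alternatives were other pseudocounts, filters, fold thresholds and scalings. Python 3.11.15, NumPy 2.4.6, pandas 2.3.3, SciPy 1.17.1 and matplotlib 3.10.9 were used.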

Additional observations from a re-analysis of the deposited data

How the results depend on the processing

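No paired analysis was possible because the labels give 1 library of each treatment, so no replicate could be left out either. The number of male chromosome genes at least 2-fold higher in estradiol, 2 as reported, was 3 with a pseudocount of 1 (against 16.8% of all genes) and 1 with a pseudocount of 50 (9.78%). It was 5 of 25 with equal totals (19.7%), 6 at a 1.5-fold threshold (24.3%), 0 at a 4-fold threshold (5.19%) and 1 where the whole counting interval had to lie beyond 2-fold (12.0%). It stayed at 2 without the filter (of 48 genes, against 12.6% of all genes) and with a mean of 100 or more (of 19, against 12.1%). With the median log2 ratio of all genes set to 0 it was also 2 (of 25, against 15.5%). The number at least 2-fold lower was 0 under these settings except for 1 at the 1.5-fold threshold (27.1% of all genes). Of all genes, between 13.8% (pseudocount of 50) and 19.7% (pseudocount of 1) were at least 2-fold lower under the other pseudocounts, filters and scalings. The median log2 ratio of 0.10 was 0.12 without the filter, 0.08 with a pseudocount of 50, 0.09 with a mean of 100 or more, 0.35 with equal totals, 0.13 with the median of all genes set to 0, 0.14 for Y_A genes alone and 0.04 for Y_B genes alone. The log2 ratio of the sums, 0.25, was 0.52 with equal totals, 0.28 with the median of all genes set to 0 and 0.28 without MapolyY_A0041.1.v3.1, the gene with most reads. It was 0.12 without MapolyY_A0024.1.v3.1, a setting chosen after the data were seen. Of 100 values of single genes under another pseudocount or scaling, 82 stayed within the counting interval of the gene and 18 did not. All 18 came from the equal totals, where 18 of the 25 genes thus left their interval. Under the other pseudocounts and with the median of all genes set to 0, every gene stayed within it. A pseudocount cannot change the sign of a log2 ratio, and both other scalings raised the ratios. Only genes with a ratio below 1 could therefore change sign, and 4 close to 1 did.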
